A study of Mus musculus with 9 samples.

Results

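Among the epithelial cells of a mouse ovarian cancer ascites, those with the highest share of transcripts from 2 beta-defensin genes, Defb19 and Defb36, were set against cells of the same gate in which neither gene was detected. The cells were chosen by measured values: a barcode of the single-cell library entered with 500 or more unique molecular identifiers (UMIs, 1 per captured transcript), 200 or more genes and at most 10% of its UMIs from mitochondrially encoded genes. The gate then asked for 3 or more UMIs summed over Krt8, Krt18, Krt19, Wt1 and Upk3b, at most 1 UMI of the macrophage genes C1qa, C1qb and C1qc, and fewer than 3 UMIs of the mitosis genes Top2a, Birc5, Prc1, Cenpf and Cenpa. Of 7435 barcodes with 500 or more UMIs, 6132 passed the cell filter and 3257 of those (53.1%) passed the gate. The top 10% of the gate by Defb19 plus Defb36 UMIs over all UMIs were 326 cells, called defensin-high cells here, or 5.32% of the filtered cells. The 1654 gate cells with no UMI of either gene are called defensin-free cells, and 325 of them were drawn as depth-matched partners, 1 for each defensin-high cell but 1.

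The library came from a single ascites sample of the ID8 ovarian cancer model, labelled ascites_ID8_def29_vegf, in a host of genotype B6_WT, and no treatment, age or number of animals is named for it. ID8 is a line of mouse ovarian surface epithelium that grows in the peritoneal cavity of C57BL/6 mice, and the derivative in the label is known for carrying added beta-defensin 29 and VEGF. The series also holds bulk libraries of cultured cells given vehicle or deferiprone, an iron chelator, which were not used here because their columns could not be placed on a sample. With 1 library there is no replicate, so every value below describes this library, no test was made, and all 95% intervals cover counting error only.

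Beta-defensins are small secreted cationic peptides whose fold is held by paired cysteines; they are best known as antimicrobial peptides of epithelia, and many members of the family are made in the male reproductive tract. Defb19 is known from the supporting cells of the developing testis. Supporting cells of the gonad, Sertoli cells in the testis and granulosa cells in the ovary, arise beside the surface epithelium from which ID8 was derived, and share with it the transcription factors Wt1 and Gata4.

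The coding sequences of both genes are shown because they chose the cells; they were taken from the GENCODE M21 annotation (GRCm38), run 5′ to 3′, and carry the in-frame cysteine codons in capitals. Defb19 (ENSMUSG00000050645) lies at chr2:152576086-152580312 on the minus strand and Defb36 (ENSMUSG00000044863) at chr2:152604327-152612729 on the plus strand, 24014 bases apart.
Defb19 coding sequence: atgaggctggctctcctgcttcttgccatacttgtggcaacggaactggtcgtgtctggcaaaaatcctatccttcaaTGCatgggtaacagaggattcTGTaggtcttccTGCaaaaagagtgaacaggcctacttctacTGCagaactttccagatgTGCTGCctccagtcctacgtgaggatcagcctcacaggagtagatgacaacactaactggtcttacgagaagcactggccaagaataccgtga
Defb36 coding sequence: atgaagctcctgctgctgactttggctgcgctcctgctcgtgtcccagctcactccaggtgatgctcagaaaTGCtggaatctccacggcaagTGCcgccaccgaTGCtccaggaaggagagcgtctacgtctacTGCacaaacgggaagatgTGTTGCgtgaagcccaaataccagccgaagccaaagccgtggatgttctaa
Defb19 has 83 codons before the stop and Defb36 has 67, and each gene has 2 coding exons. Both carry 6 cysteine codons with the same spacing, the gaps being 6, 3, 9, 5 and 0 codons. The encoded proteins are identical at 22 of 67 aligned positions (32.8%), so the spacing is shared while most other positions are not.

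The levels of the pair itself chose the cells and are given as a description. Defensin-high cells held 1308 CPM of Defb19 (UMIs of the gene in each 1000000 UMIs of the class; 1255 to 1364) and 1252 CPM of Defb36 (1200 to 1306). The 1277 gate cells with a UMI of the pair but below the top 10% held 154 CPM of Defb19 and 217 CPM of Defb36. In the cells with 3 or more C1q UMIs and at most 1 UMI of the gate genes, which should lack both genes, the levels were 16.3 and 33.6 CPM, over 1075 cells with a median of 1640 UMIs. Barcodes with 50 or fewer UMIs, which carry free RNA of the ascites, held 216 CPM of Defb19 and 281 CPM of Defb36, more than the gate cells below the top 10% and less than the defensin-high cells.

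Defb19 had a UMI in 89.9% of the defensin-high cells (86.1 to 92.9%) and Defb36 in 93.9% (90.7 to 96.2%). The C1q cells had a Defb19 UMI in 2.88% and a Defb36 UMI in 5.67%, at a lower depth than the median of 5208 UMIs of the defensin-high cells. The share of the pair ran from 1107 to 11471 CPM among defensin-high cells, with a median of 1959. It formed a continuum at the edge: the last 3 cells inside held 1109, 1108 and 1107 CPM, from 1, 3 and 2 UMIs of the pair, and the first 3 outside held 1104, 1098 and 1098 CPM, from 3, 4 and 4 UMIs. Of the 326 cells, 273 had both genes, 20 had Defb19 alone and 33 had Defb36 alone, and 7 cells entered on 1 UMI of the pair. Where both were present, Defb19 made up a median of 50% of the pair's UMIs, from 5.26% to 94.4%. The 326 cells held 65.1% of all Defb19 UMIs of the gate and 56.0% of all Defb36 UMIs.

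**Figure D1:**
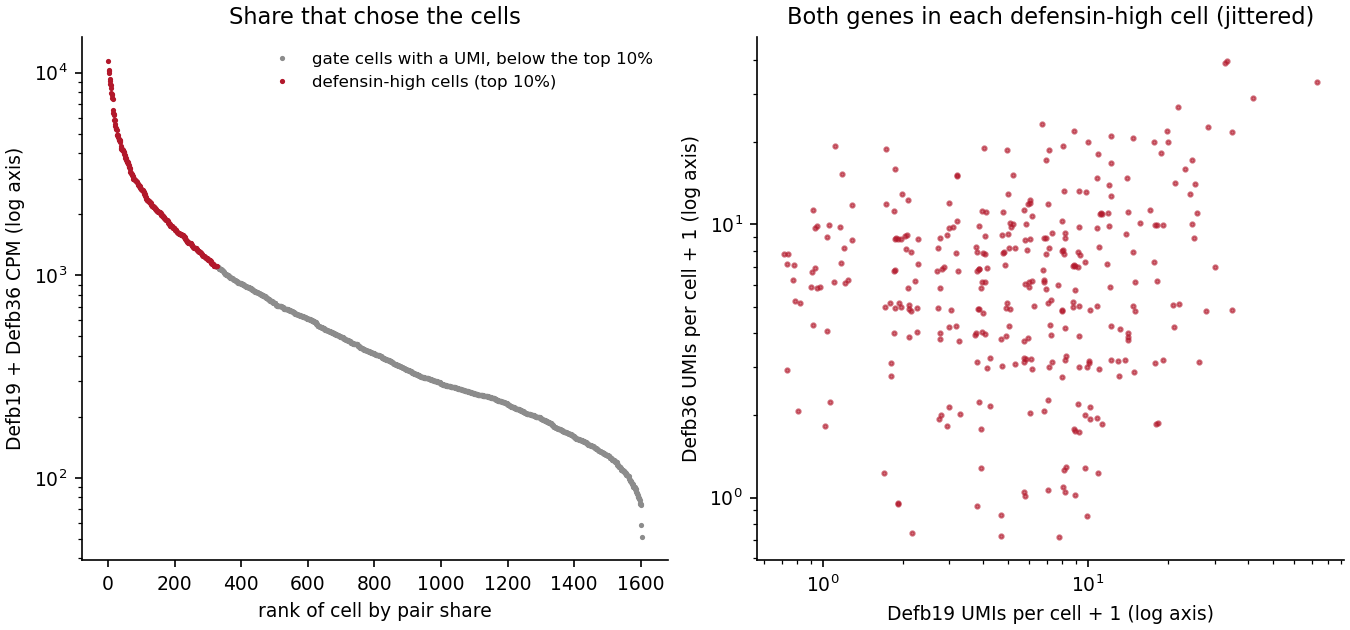
Left, the Defb19 plus Defb36 share (CPM, log axis) of each gate cell with a UMI of the pair, by rank, with the 326 defensin-high cells in red; the share falls without a gap at 1107 CPM. Right, Defb19 against Defb36 UMIs plus 1 in each defensin-high cell (log axes, points moved slightly at random so that they do not overlap).

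Choosing cells on a single gene of the pair gave the level of the other gene in cells it had not chosen. In the 326 gate cells highest for Defb19, Defb36 stood at 917 CPM, against 99.8 in 326 depth-matched cells without a Defb19 UMI, a ratio of 9.19 (7.85 to 10.8). In the 326 cells highest for Defb36, Defb19 stood at 946 CPM against 81.2, a ratio of 11.6 (9.78 to 14.0). The size of the latter ratio depended on the cut, at 30.1 (21.5 to 43.5) for the top 5% and 9.34 (8.17 to 10.7) for the top 20%, while the former moved to 13.9 and 7.07. A second draw of depth-matched cells put the latter ratio at 14.0. Each gene was thus higher in cells chosen on the other at each of the 3 cuts.

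Other beta-defensins had few UMIs. Of 40 other Defb genes in the file, 8 had a UMI in a gate cell. Defb42 had most, with 330 UMIs in 288 of the 3257 cells, and its level was close between the classes, with 34 UMIs in defensin-high and 29 in matched defensin-free cells, a ratio of 1.17 (0.693 to 1.99). Defb48 had 58 UMIs, Defb25 had 26, Defb20 had 10, Defb28 and Defb29 had 2 each, and Defb45 and Defb47 had 1 each. Defb29, the gene in the label of the line and a neighbour of the pair, was thus at 2 UMIs over the whole gate; which bases of it the line carries is not given in the sources used here. Vegfa, the other gene of the label, had 61 against 58 UMIs, a ratio of 1.05 (0.721 to 1.53).

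The classes were close in depth and differed in other measures of the cells. The median was 5208 UMIs in defensin-high cells and 5184 in matched defensin-free cells, with 1686 and 1535 genes per cell. Mitochondrially encoded genes took a median of 3.99% of the UMIs of a defensin-high cell (quartiles 3.22 to 4.96%) and 3.07% in the matched cells (2.56 to 3.71%). All 12 measured mitochondrially encoded genes lay below the 1.5-fold line, with a median ratio of 1.23. Malat1, a nuclear noncoding RNA, stood at a ratio of 0.754, and 80 of 80 measured ribosomal protein genes lay between the lines, with a median ratio of 0.869. Their part in the other results was not tested. Scrublet, a doublet caller, marked 2 of the 326 defensin-high cells and 5 of the 325 matched cells, out of 89 of 6442 cells in all (1.38%).

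Over 5168 genes with 50 or more UMIs in both classes together, Defb19 and Defb36 left out of the genes and of the totals, the median ratio of CPM was 1.13 (a log2 ratio of 0.18, quartiles of the ratio 0.948 to 1.36). Genes were counted as higher at a ratio of 1.5 or more and as lower at 1/1.5 or less. By that rule 791 genes (15.3%) were higher in defensin-high cells and 232 (4.49%) were lower, so 77.3% of the genes past the line were higher. Both shares are the background for every count below of list members or neighbours past the line. After division of every ratio by the median ratio, 462 were higher and 411 lower, or 52.9% higher. Genes with ratios between 1.5 and 1.69 do not pass on that scale, and genes down to 0.753 pass as lower; the scale is named below beside the genes called on 1 scale only. Ratios of 4 or more were seen in 22 genes and of 1/4 or less in 9.

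**Figure D2:**
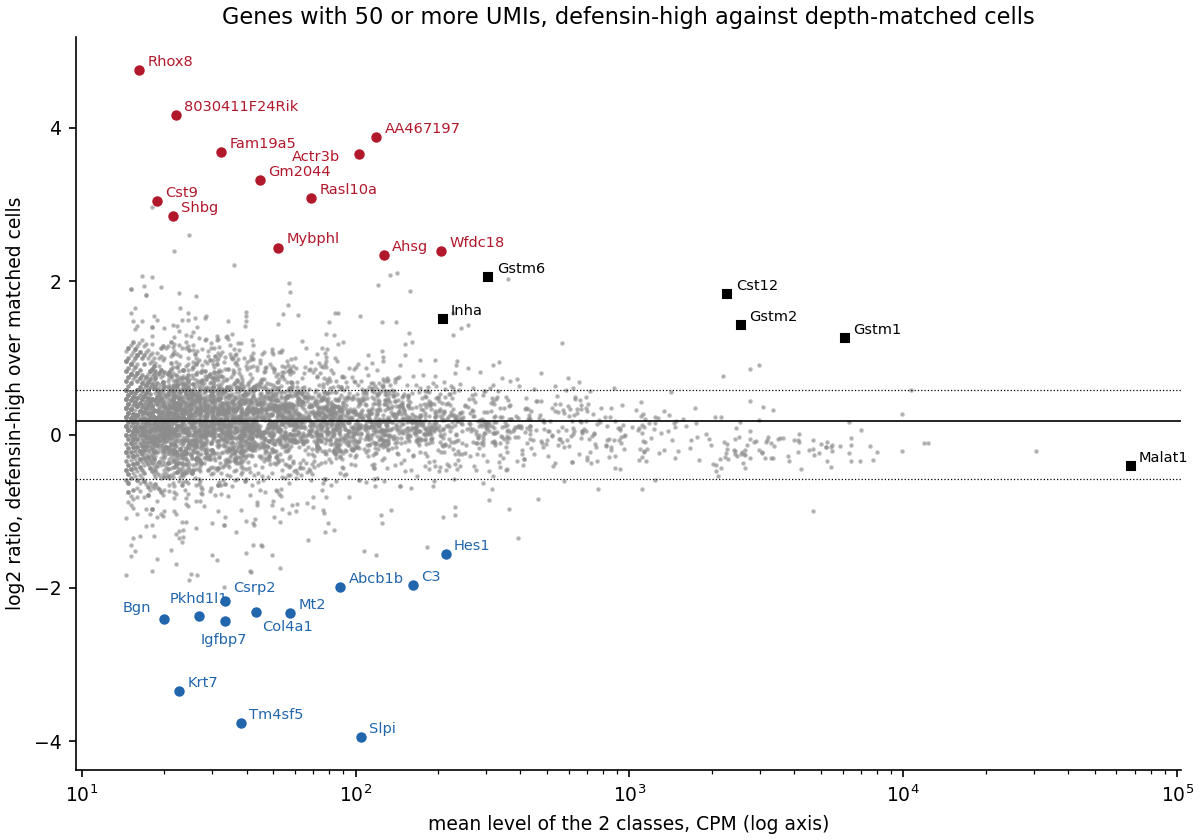
Each point is 1 of 5168 genes, with the mean level of both classes (CPM, log axis) against the log2 ratio of defensin-high over matched defensin-free cells. Red and blue mark the 12 highest and 12 lowest genes by the interval bound nearest 1, squares mark 6 other genes of the text, the solid line is the median log2 ratio of 0.18 and the dotted lines are the 1.5-fold lines.

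Actr3b was among the highest genes. It encodes an actin-related protein close to Arp3, the subunit that with Arp2 starts branched actin filaments in the Arp2/3 complex. Defensin-high cells held 328 Actr3b UMIs (190 CPM) and matched defensin-free cells 26 (15.1 CPM), a ratio of 12.6 (8.45 to 19.6), and a UMI was present in 38.8% against 6.46% of cells. Against all 1654 defensin-free cells, at 21.9 CPM, the ratio was 8.68 (7.22 to 10.5). Macrophage-gate cells held 5.25 CPM of Actr3b. The value depended on the cells drawn: it was 7.78 with a minimum of 1000 UMIs per cell, 6.68 without doublets, 6.76 for the top 5%, 6.14 for the top 20% and 18.9 for defensin-high cells with 5 or more UMIs of the pair. It stayed above 6 in each of these. The defensin-high cells held 40.4% of the Actr3b UMIs of the gate.

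Of 10 measured genes of the Arp2/3 complex, Actr3b was the only one past the line. Its close relative Actr3 had 86 against 80 UMIs, a ratio of 1.07, and Actr2 had 83 against 108, a ratio of 0.768. Arpc1b, the most abundant subunit by UMIs, stood at 1.32 and Arpc2 at 1.05; the list's median ratio was 1.09, below the 1.13 of all genes. Of 9 measured genes that activate the complex 3 were higher, beside 15.3% of all genes: Cttn (cortactin, 1.53), Nckap1 (1.61) and Cyfip1 (1.70), the latter 2 being subunits of the WAVE regulatory complex. Cttn and Nckap1 do not pass after division by the median ratio, which leaves 1 of 9, beside 462 of 5168 over all genes.

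The other genes at the top were from several families. AA467197, which encodes a small mitochondrial protein of the NDUFA4 family, had 384 against 26 UMIs, a ratio of 14.8 (9.91 to 22.9), with a UMI in 50.2% against 7.38% of cells. Rasl10a, a Ras-like small GTPase, had 212 against 25, a ratio of 8.47 (5.58 to 13.4). Fam19a5, a secreted chemokine-like protein, had 103 against 8, a ratio of 12.9 (6.29 to 30.6). These were genes with few UMIs in the defensin-free cells, so that the upper bounds are wide. Ahsg, which encodes the plasma glycoprotein fetuin-A, had 365 against 72 UMIs, a ratio of 5.06 (3.92 to 6.61). Wfdc18, of the whey acidic protein family, had 594 against 113, a ratio of 5.25 (4.29 to 6.48). Mybphl, a myosin-binding protein gene known from atrial muscle, stood at 5.42 (3.61 to 8.43). Gm2044, a noncoding transcript annotated over the microRNA gene Mir202, had 140 against 14 UMIs, a ratio of 9.99 (5.76 to 18.7).

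Several genes known from Sertoli and other supporting cells of the gonad were higher in defensin-high cells. Rhox8, a homeobox gene of the X-linked Rhox cluster known from Sertoli and granulosa cells, had 54 against 2 UMIs, a ratio of 27.0 (7.11 to 228); with all defensin-free cells as comparison the ratio was 12.9 (7.58 to 22.7). Rhox5, the androgen-responsive member of the same cluster, had 38 against 4 UMIs, a ratio of 9.49 (3.42 to 36.6), and 4.53 against all defensin-free cells. Shbg, whose product in the testis is the androgen-binding protein of Sertoli cells, had 65 against 9, a ratio of 7.21 (3.58 to 16.5). Inha, the alpha subunit of inhibin, had 530 against 186 UMIs, a ratio of 2.85 (2.40 to 3.38). Dhh, the hedgehog ligand of Sertoli cells, had 34 against 6, a ratio of 5.66 (2.35 to 16.5). Amh, the anti-Müllerian hormone, had 12 UMIs in defensin-high cells and 0 in the matched cells, which is at least 4-fold higher at a floor of 3 counts over the class, with a lower bound of 2.78 by the counting interval; against all defensin-free cells, where it had UMIs, the ratio was 8.17.

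Other transcription factors of that lineage ranged from no call to a ratio above 5. Sox9, which directs Sertoli cell fate, had 505 against 290 UMIs, a ratio of 1.74 (1.5 to 2.02), and 1.44 without the cells rich in fibroblast or mesothelial genes that are described below, which is under the line. Gata4 had 130 against 74, a ratio of 1.75 (1.31 to 2.37), and 1.39 both against all defensin-free cells and without those cells, also under the line. Wt1, which is a gate gene and was thus required in part by the choice, stood at 0.930. Gata1, the erythroid factor that Sertoli cells also express, had 63 against 12 UMIs, a ratio of 5.24 (2.80 to 10.7). Beside Gata1, the 4 haemoglobin genes summed to 737 CPM in defensin-high cells, 362 in the matched cells and 1922 in all defensin-free cells, so the direction for haemoglobin turned with the comparison cells while the Gata1 ratio was 5.36 against all defensin-free cells. Mro, a nucleolar protein gene named for its male-biased expression in the developing gonad, had 157 against 40 UMIs, a ratio of 3.92 (2.76 to 5.70).

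As a list of 20 gonadal supporting-cell genes, 8 had 50 or more UMIs and 4 of these were higher (Rhox8, Inha, Sox9 and Gata4), none lower, beside 15.3% higher and 4.49% lower over all genes, with a median ratio of 1.56 beside 1.13. The list was drawn up with the leading genes of these cells known. Rhox5, Dhh and Amh were among its genes under the minimum of UMIs, and most others there are not named here. Of the 20 genes 6 had no UMI in defensin-high cells and 7 had none in matched cells. Summed over the list, with the gate gene Wt1 included, the ratio was 1.27 (1.22 to 1.32). Not every gene of the list was shifted: Clu, or clusterin, an abundant product of Sertoli cells, stood at 1.15 with 2884 against 2499 UMIs, Nr5a1 at 1.37 and Wnt4 at 1.05. Of 4 measured ovarian surface genes Amhr2, the receptor of anti-Müllerian hormone, stood at 1.60 (1.47 to 1.75) and Aldh1a1 at 1.51, and neither passes after division by the median ratio. Gata6 stood at 0.935.

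**Figure D3:**
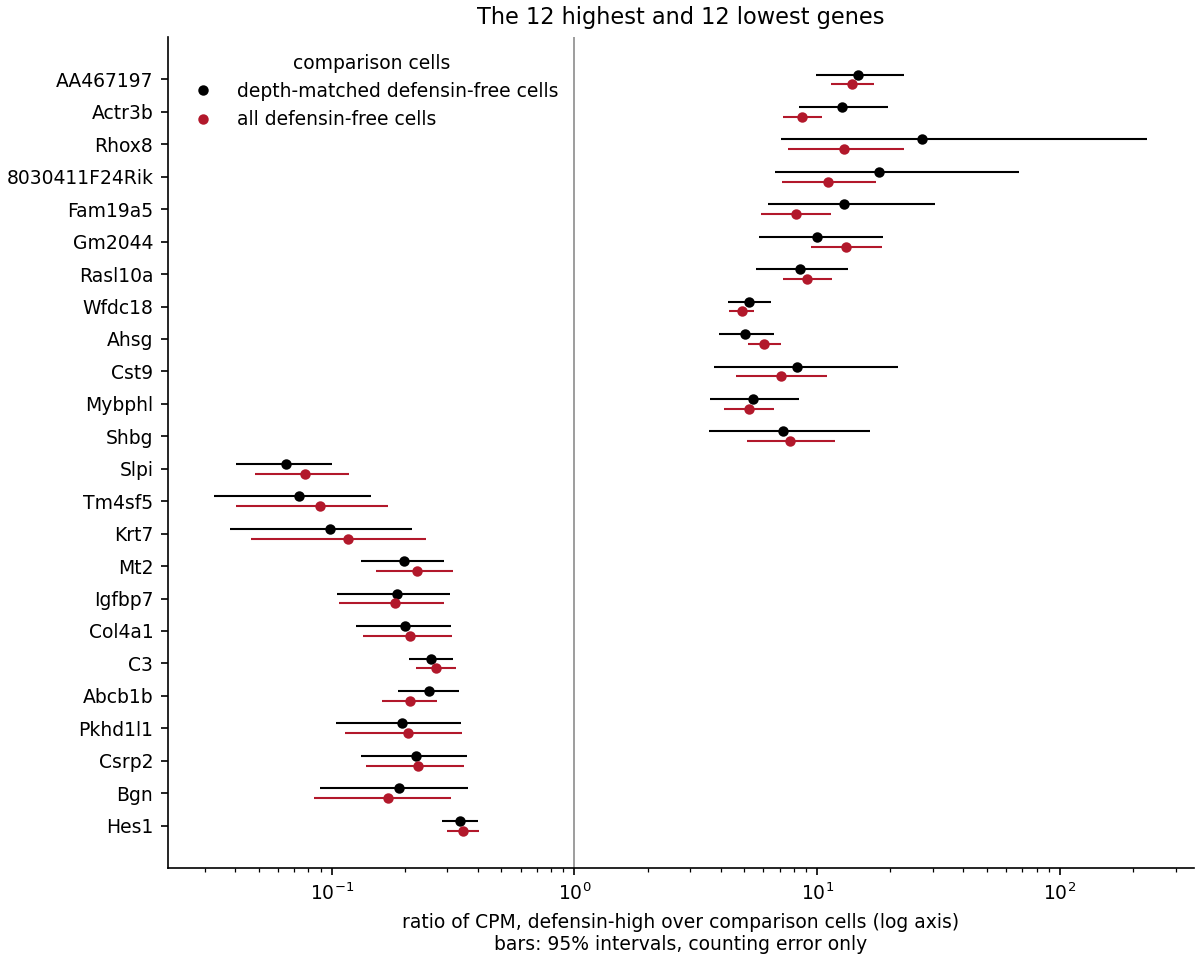
The 12 highest and 12 lowest genes, with the ratio of CPM in defensin-high cells over matched defensin-free cells (black) and over all defensin-free cells (red), on a log axis. Bars are 95% intervals that cover counting error; for each of the 24 genes both points lie on the same side of 1.

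Cystatin genes that lie side by side on chromosome 2 were higher together. Cst12, the most abundant of them, had 6128 UMIs in defensin-high cells (3555 CPM) and 1725 in matched cells (1002 CPM), a ratio of 3.55 (3.36 to 3.75), and a UMI in 98.5% against 86.8% of cells. Macrophage-gate cells held 170 CPM of Cst12 and the low-count barcodes 1714, so free RNA carried it too. Cst9, also known as testatin, had 58 against 7 UMIs, a ratio of 8.28 (3.77 to 21.5). 8030411F24Rik, at chr2:148782009-148785937 next to Cst12 (chr2:148789361-148793546), had 72 against 4, a ratio of 18.0 (6.73 to 67.8). Cst8 had 42 against 6, a ratio of 6.99 (2.96 to 20.1), and Cst11 had 22 against 5, a ratio of 4.40 (1.62 to 14.9), both under the minimum of 50 UMIs. Cst3, cystatin C, which lies in the same window and is made by most cells, stood at 1.30 (1.20 to 1.42), below the line. Within 250 kb of Cst12 the file held 14 genes, of which 5 were measured, Cst12 included. Of these 3 were higher, beside 15.3% of all genes: Cst12, which set the window, Cst9 and 8030411F24Rik.

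Counts around the chosen pair were small. Within 250 kb of Defb19 and Defb36 the file held 28 genes, the pair included, and 9 of the others were measured. None of the 9 was higher and 1 was lower, beside 15.3% and 4.49% of all genes. With 9 genes a difference from those shares cannot be told. Rem1, a small GTPase gene and the nearest measured one, was lower with 18 against 45 UMIs, a ratio of 0.400 (0.218 to 0.704). Id1 stood at 0.782, H13 at 1.06, Bcl2l1 at 1.07 and Sox12 at 1.24. Within 250 kb of Rhox8 no other gene had 50 or more UMIs; Rhox5, given above, and Rhox7a, with 8 against 3 UMIs, were the others with more than 1 UMI in the defensin-high cells.

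**Figure D4:**
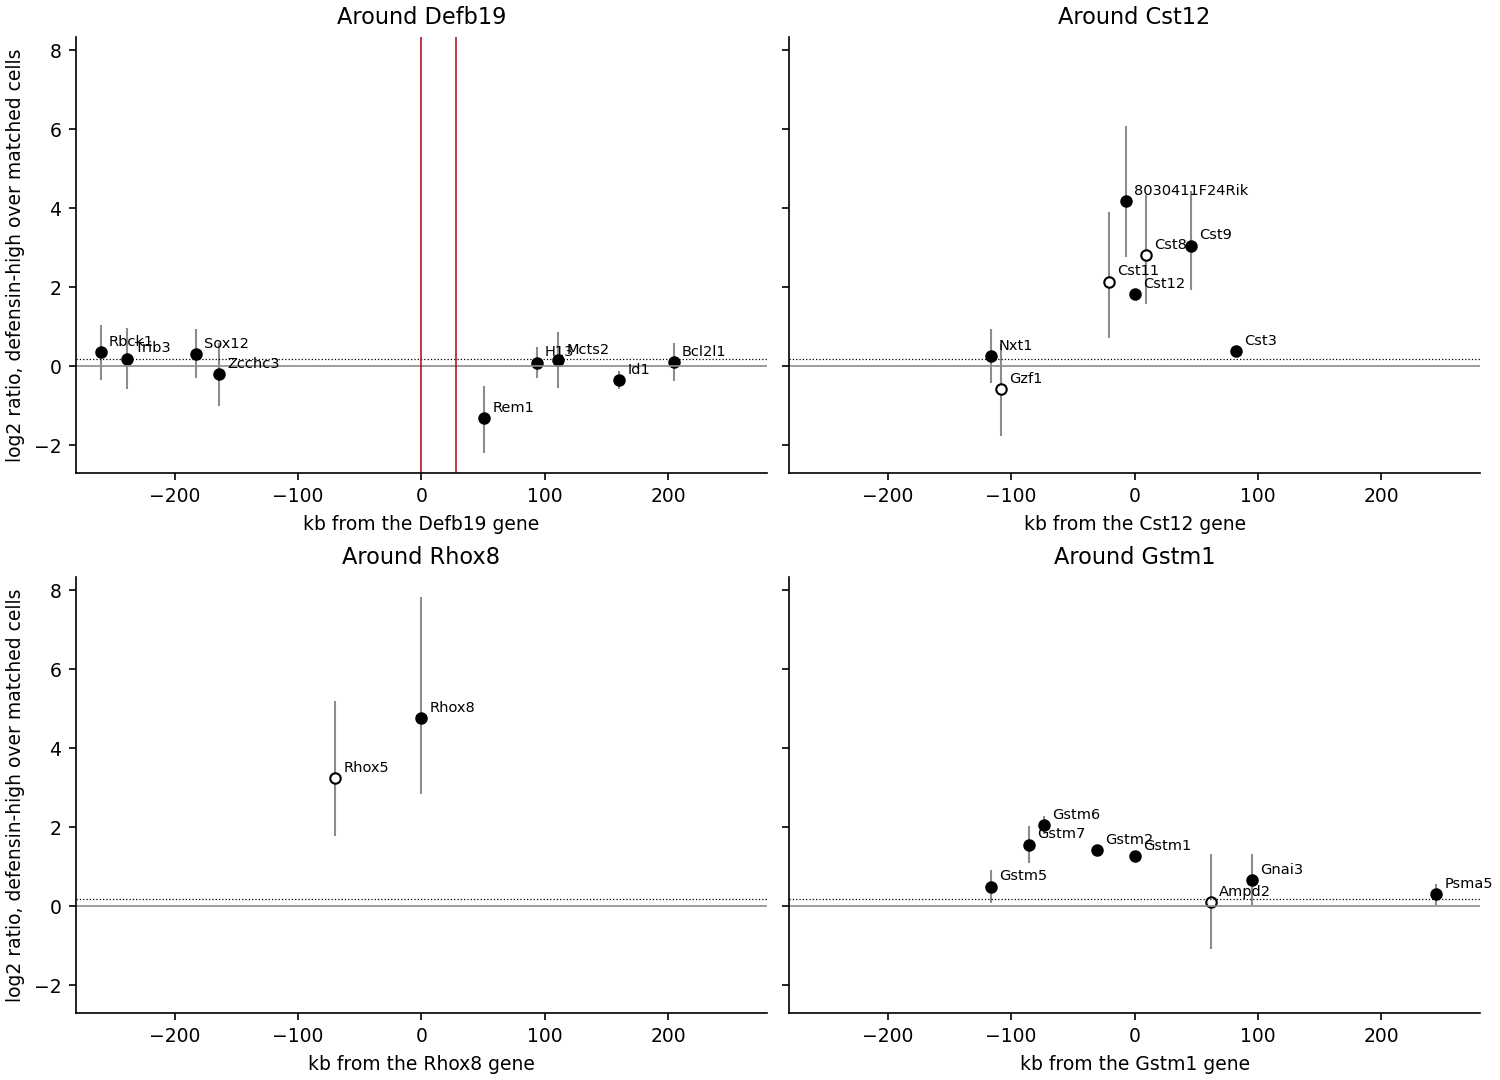
Log2 ratio of defensin-high over matched cells for genes with 20 or more UMIs, by distance in kb from Defb19, Cst12, Rhox8 and Gstm1; filled points have 50 or more UMIs and bars are 95% intervals that cover counting error. Red lines mark Defb19 and Defb36, the dotted line is the median of all genes, and Cst12, Cst9 and Gstm1 stand above the 1.5-fold line while no measured neighbour of the pair does.

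Promoter sequences are shown for 3 of the genes that were high together, Defb36, Cst9 and Shbg, each as the 250 bases before its RefSeq start (GRCm38.p6), 5′ to 3′ on the strand of the gene. Capitals mark GATAA, the core of a GATA factor site, and a TATA box spelled TATAAA, each on either strand. A SOX core spelled AACAAT was searched in the same way. A nuclear receptor half-site spelled AAGGTCA was searched too, and neither is in these 3 windows.
Defb36 promoter, chr2:152604077-152604326, plus strand: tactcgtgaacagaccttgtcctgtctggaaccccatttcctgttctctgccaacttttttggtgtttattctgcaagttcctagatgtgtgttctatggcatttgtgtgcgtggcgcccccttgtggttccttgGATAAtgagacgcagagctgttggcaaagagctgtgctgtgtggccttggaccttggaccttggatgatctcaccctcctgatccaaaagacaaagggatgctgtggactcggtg
Cst9 promoter, chr2:148834897-148835146, plus strand: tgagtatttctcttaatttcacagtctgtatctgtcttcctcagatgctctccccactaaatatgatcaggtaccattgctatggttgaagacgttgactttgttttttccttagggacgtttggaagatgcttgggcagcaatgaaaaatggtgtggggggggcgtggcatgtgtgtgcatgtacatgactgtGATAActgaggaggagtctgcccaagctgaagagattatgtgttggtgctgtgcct
Shbg promoter, chr11:69617906-69618155, minus strand: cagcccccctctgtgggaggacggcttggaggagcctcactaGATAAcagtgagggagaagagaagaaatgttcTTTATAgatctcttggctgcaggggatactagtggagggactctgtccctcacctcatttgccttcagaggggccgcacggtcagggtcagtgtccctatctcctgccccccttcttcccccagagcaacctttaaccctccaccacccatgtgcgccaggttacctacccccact
The GATA core on either strand is in 22.6% of 32851 RefSeq promoter windows of this length, the TATA box in 12.4%, the SOX core in 9.42% and the half-site in 4.08%. Of the 12 highest genes 7 had an entry and 4 of the 7 held the GATA core (Ahsg, Cst9, Mybphl and Shbg); of the 12 lowest genes 9 had an entry and 2 held it (Slpi and Tm4sf5). The TATA box was in 2 of the 7 and 0 of the 9, the SOX core in 1 and 0, and the half-site in none of either. With 7 and 9 genes a difference from the shares of all windows cannot be told. The 3 windows printed above all hold the GATA core and are examples only. Among other higher genes with an entry, AA467197, Rasl10a, Wfdc18, Cst12, Gata1, Rhox5, Inha and Gstm1 lacked it in every window. Dhh, Gstm2 and the first window of Gstm6 also held it. A match of a few letters is a description of the sequence and shows no binding.

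Glutathione transferases, which conjugate glutathione to electrophiles and so help to clear them, included Gstm1, the gene with most UMIs in defensin-high cells among the 791 higher genes. Of 10 measured genes of the family 5 were higher and 1 lower, beside 15.3% and 4.49% of all genes. The family's median ratio was 1.90, beside 1.13 over all genes. Gstm1 stood at 8608 CPM against 3593, a ratio of 2.40 (2.33 to 2.47), and Gstm2 at a ratio of 2.68. Gstm6 had 848 against 204 UMIs, a ratio of 4.15, Gsta4 had 372 against 88, a ratio of 4.22 (3.34 to 5.39), and Gstm7 stood at 2.94. Mgst2, a microsomal transferase, was lower at 0.595. The Gstm genes are near copies of each other on chromosome 3, and how reads shared between copies were counted is not given in the sources used here, so their separate values are uncertain. Me1, the cytosolic malic enzyme, stood at 2.51 (2.08 to 3.05). G6pdx, the first enzyme of the pentose phosphate path, stood at 1.94, and both make NADPH. They were the 2 higher of 10 measured NRF2 and ferroptosis genes, beside 15.3% of all genes. The median ratio of that list was 1.06, below the 1.13 of all genes. Gpx4, which reduces lipid peroxides, stood at 1.05.

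Fatty acid synthesis genes were higher in 2 of 4 measured members of their list, beside 15.3% of all genes. That share, and 4.49% lower over all genes, are the background of each count here. Fasn, fatty acid synthase, had 156 against 71 UMIs, a ratio of 2.19 (1.65 to 2.95), and the desaturase Scd2 stood at 1.84. Of 16 measured glycolysis and hypoxia genes Hk2, a hexokinase, was higher at 1.88, while Ndrg1 at 0.572 and Egln3 at 0.605 were lower. The interval of Egln3 spans 1 (0.344 to 1.04). Of 71 measured nuclear genes of the respiratory chain 3 were higher: Cox7a1, a muscle-type subunit of cytochrome c oxidase, at 1.93, Ndufb11 at 1.66 and Ndufb4 at 1.52, the latter 2 not after division by the median ratio. The list's median was 1.06. Among 8 measured iron handling genes none was higher; Trf, transferrin, had 1008 against 1647 UMIs, a ratio of 0.611, and Cp, ceruloplasmin, stood at 0.532. Fth1 and Ftl1, the ferritin chains, stood at 0.791 and 1.15.

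The 12 lowest genes were of varied kinds. Slpi, an antiprotease of epithelial secretions, had 22 UMIs in defensin-high and 338 in matched cells, a ratio of 0.0650 (0.0402 to 0.10), and was present in 5.54% against 24% of cells. Tm4sf5, a tetraspan membrane protein gene, had 9 against 122, a ratio of 0.0737, and Krt7, a keratin of simple epithelia, had 7 against 71, a ratio of 0.0985 (0.0382 to 0.214). Abcb1b, which encodes a P-glycoprotein efflux pump, had 61 against 242 UMIs, a ratio of 0.252 (0.187 to 0.335). The matrix genes Col4a1 and Bgn stood at 0.201 and 0.189, and Igfbp7, Pkhd1l1 and Csrp2 at 0.185, 0.195 and 0.223. Hes1, the transcriptional repressor induced by Notch, had 186 against 549 UMIs, a ratio of 0.338 (0.285 to 0.400), in 31.4% against 55.4% of cells. Mt2, a metallothionein, had 33 against 166, a ratio of 0.199, but stood at 1.10 when cells were limited to 5% mitochondrial UMIs, so its direction turned with that limit.

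Mesothelial surface genes were lower as a group, and cells rich in fibroblast or mesothelial genes were unequally shared between the classes. Of 10 mesothelial surface genes 6 were measured and all 6 were lower, beside 4.49% of all genes, with a median ratio of 0.465. They were Krt7, Upk1b (0.252), Bnc1 (0.400), Nkain4 (0.531), Gpm6a (0.549) and Rspo1 (0.569). The 10 genes summed to 190 CPM in defensin-high and 396 in matched cells. Lrrn4, another surface gene of the list under the minimum, went the other way with 31 against 15 UMIs. Of 8 fibroblast genes only Dcn was measured, at 0.687, which passes as lower only after division by the median ratio, and 5 of the 8 were at 0 in defensin-high cells. Cells with 2 or more UMIs of 10 fibroblast and mesothelial genes (Col1a1, Col1a2, Col3a1, Lum, Mgp, Pdgfra, Dpt, Msln, Krt7 and Upk1b, a set chosen after the values were seen) were 7 of 325 defensin-high cells (2.15%) and 48 of 325 matched cells (14.8%). Leaving such cells out also set the top 10% anew, at 290 cells, and drew new matched cells. The changes given next mix these steps, and their parts were not separated. Without such cells Slpi stood at 0.172 (0.0961 to 0.289), Tm4sf5 at 0.127, Igfbp7 at 0.307, C3 at 0.299, Abcb1b at 0.157 and Hes1 at 0.363. Saa3 stood at 0.639 with an interval that spans 1 (0.319 to 1.25). Krt7 is 1 of the 10 genes that removed the cells, so its value without them is not given. Of the mesothelial surface list Gpm6a stood at 0.746 (0.512 to 1.08), no longer past the line, and Bnc1 at 0.551 (0.280 to 1.05). Mgst2 at 0.685 and Ndrg1 at 0.677 were no longer past the line either, and neither were Hk2 at 1.49, Scd2 at 1.48, Amhr2 at 1.48, Ddit3 at 1.40, Bax at 1.36, Timp1 at 1.35 and Ccnd1 at 1.31. Among the highest genes the change was above 1.5 times for Rhox8 (12.7), 8030411F24Rik (9.71), Fam19a5 (5.93), Cst9 (4.58) and, in its list, Gsta4 (2.76), while Actr3b stood at 13.8. With such cells kept and all defensin-free cells as comparison, Rhox8 stood at 12.9, 8030411F24Rik at 11.1, Fam19a5 at 8.18 and Cst9 at 7.09. The label of tumour cells was not separately testable, since no gene of the files marks the implanted cells alone.

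Markers of macrophages and dendritic cells stood at like summed levels in both classes, and those of other cells had few UMIs. The 10 macrophage genes summed to 229 CPM in defensin-high and 242 in matched cells, with Lyz2 at 93 against 89 UMIs and 2 of the 10 at 0 in defensin-high cells. The 8 dendritic genes summed to 889 and 973 CPM, mostly from Cd74 with 791 against 854 UMIs; 4 of the 8 were at 0. The 6 endothelial genes had 13 UMIs in defensin-high and 14 in matched cells, the 5 neutrophil genes 9 and 5, and the B cell genes 1 and 6.

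Host defence genes other than the chosen pair were found on both sides of the line. The background of each count here is 15.3% higher and 4.49% lower over all genes. Of 5 measured secreted defence genes 3 were lower, beside 4.49% of all genes: Slpi, Saa3, an acute-phase protein gene (0.283), and Serping1, the C1 inhibitor (0.350). Cd59a, which blocks the membrane attack complex, was higher at 2.32 (1.81 to 2.99). C3, the central complement component, had 114 against 443 UMIs, a ratio of 0.257 (0.207 to 0.316). Of 8 measured cytokine and chemokine genes 4 were lower and none higher, beside 4.49% lower and 15.3% higher over all genes. The 4 were Ccl2 (0.268), Cxcl16 (0.392), Il18 (0.407) and Cxcl1 (0.457). Of 8 measured genes of the class I antigen presentation path, H2-K1 (0.368, 0.248 to 0.535) and the immunoproteasome subunit Psmb8 (0.474) were lower and the loading factor Tapbp (1.55) was higher, the latter not after division by the median ratio. B2m stood at 0.839. Of 7 measured interferon-stimulated genes Ifi35 (1.91) and Ifi27 (1.61) were higher, Ifi27 not after division by the median ratio, and Ifitm3 (0.484) and Oasl2 (0.505) lower.

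Other signalling and matrix lists split. The background of each count here is 15.3% higher and 4.49% lower over all genes. Of 7 measured genes of the insulin-like growth factor axis 3 were lower, beside 4.49% of all genes: Igfbp7, Igfbp4 (0.326) and Igfbp5 (0.567). Igf1 stood at 1.28. Of 12 measured matrix and protease genes Col4a1, Col4a2 (0.300) and Col6a1 (0.415) were lower, and Ctsl (1.55) and Timp1 (1.54) were higher, these last not after division by the median ratio. Of 9 measured epithelial and mesenchymal genes Fn1, fibronectin, stood at 0.288 and the tight junction gene Cldn3 at 0.394, while Vim stood at 1.42. Immediate early genes lay between the lines for 13 of 15, with Fosb at 1.82 and Zfp36 at 0.492, and none of 3 measured ERK feedback genes passed (Ier3 0.766, Spry2 0.874). Of 11 measured ATF4 and ER stress genes Ddit3 stood at 1.61, which does not pass after division by the median ratio, and Herpud1 at 0.593 from 19 against 32 UMIs (0.318 to 1.08), a direction that turned under 5 of the 14 alternative settings. Bax, of 8 p53 targets, stood at 1.52, and does not pass after that division either.

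Cell cycle genes outside the gate were close to the other genes. Of 9 measured S phase genes 1 was higher, Mcm6 at 1.60, beside 15.3% of all genes. Of 6 measured genes of a list of mitosis and other cycle genes 2 were higher, Cks2 (1.61) and the cyclin D1 gene Ccnd1 (1.51). None of them passes after division by the median ratio.

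Genes that lead other groups of gate cells fell on both sides. Wfdc18 and the noncoding Gm26532 (3.0) were higher, while Lgals2, a galectin, had 380 against 965 UMIs, a ratio of 0.393, and Abcb1b, C3 and Gng13 (0.604) were lower. Pam, which amidates peptides, stood at 1.24 and Abhd2 at 1.31. In all, 2 of the 8 measured genes of this list were higher and 4 were lower, beside 15.3% and 4.49% of all genes. The list was drawn up with earlier results of these data known.

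Several of the named genes differed step by step along the pair's share and not at the top 10% alone. The genes were named with their ratios between defensin-high and defensin-free cells known, so the contrast between these ends follows from the choice. Only the parts below the top 10% took no part in those ratios. The gate was set in order of that share: all defensin-free cells, 639 and 638 cells in the lower and upper part below the top 10%, and 109, 109 and 108 defensin-high cells. Actr3b stood at 21.9, 21.1, 59.2, 130, 168 and 268 CPM along this order. Cst12 stood at 993, 1439, 2083, 2733, 3376 and 4499, and Inha at 115, 124, 175, 202, 271 and 441. By value, Cst12 and Inha were thus higher at each step, and Actr3b from the upper part below the cut onward. The intervals of Cst12 did not overlap between parts. Those of some neighbouring parts did for Inha, at 115 (107 to 122) and 124 (114 to 136). The same held for Actr3b, at 130 (102 to 163) and 168 (136 to 206). Slpi stood at 165, 68.6, 47.1, 23.1, 8.85 and 6.71 CPM, Hes1 at 311, 227, 210, 156, 110 and 60.4, and Abcb1b at 168, 142, 96.1, 63.9, 26.6 and 16.8. Wfdc18 did not follow the order: it stood at 70.6, 157, 320, 300, 271 and 456. Clu stayed between 1347 and 1750. The median depth of the 6 parts lay between 4574 and 6326 UMIs.

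**Figure D5:**
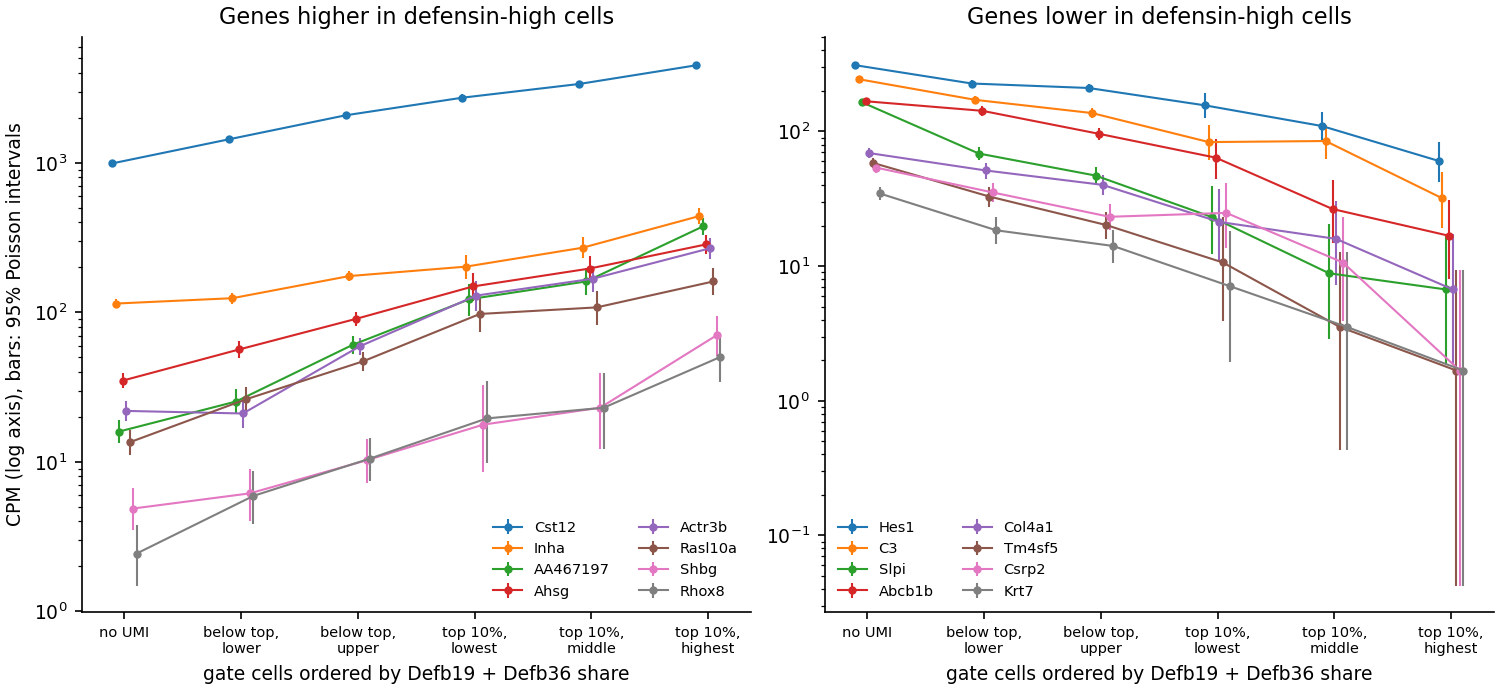
CPM (log axis) of 8 genes higher (left) and 8 genes lower (right) in defensin-high cells, over 6 parts of the gate ordered by the Defb19 plus Defb36 share, from all defensin-free cells to the highest 108 defensin-high cells. Bars are 95% Poisson intervals; Cst12 goes from 993 to 4499 and Hes1 from 311 to 60.4.

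The defensin-high cells did not all carry UMIs of the leading genes. Of the 12 highest genes a defensin-high cell had a UMI of a median of 3, from 0 to 10. None was found in 24 of 325 cells, and 5 or more in 111. In matched cells the median was 0, with 185 having none and 1 having 5 or more. The 12 genes were chosen by their ratio between these same cells, so this contrast follows from the choice. How far sampling of few UMIs per cell makes the spread was not tested. An Actr3b UMI was found in 126 of the 326 cells. Between 109 of these and 109 depth-matched defensin-high cells without one, Ahsg had 186 against 80 UMIs, a ratio of 2.33 (1.78 to 3.06), Gata1 had 36 against 13, a ratio of 2.77 (1.44 to 5.69), and Inha stood at 1.77 (1.43 to 2.19). AA467197 stood at 1.55 and Cst12 at 1.35, and the pair itself was higher in the Actr3b cells, with Defb19 at 1.54 (1.39 to 1.70) and Defb36 at 1.42 (1.27 to 1.58). Hes1 was lower at 0.588 (0.401 to 0.853) and Mt2 at 0.177. Fam19a5 at 1.0 (0.603 to 1.66), 8030411F24Rik at 0.926 (0.516 to 1.66) and Wfdc18 at 0.911 (0.732 to 1.13) did not go with Actr3b beyond counting error.

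The same genes were examined in cells that the gate had left out. Of 220 cells with the mitosis genes at 3 or more UMIs, 19 (8.64%, 5.28 to 13.2%) reached the pair's share of the defensin-high cells, and 92 had no UMI of the pair. These were compared without depth matching, at median depths of 7279 and 7316 UMIs. All 12 highest genes had a ratio above 1 and all 12 lowest a ratio below 1, beside 51.9% and 48.1% of all genes compared. The interval lay above 1 for 10 of the former and below 1 for 7 of the latter. The share of all genes with such intervals is not given here, so the interval counts have no background. AA467197 had 44 against 8 UMIs there, a ratio of 25.4 (11.8 to 62.6), and Cst12 stood at 4.55 (3.90 to 5.29). Actr3b had 2 against 6 UMIs, a ratio of 1.54. Its interval of 0.152 to 8.62 spans 1. It also overlaps that of the unmatched ratio in the gate, 8.68 (7.22 to 10.5), so a difference between these ratios cannot be told. Its level in the 19 cells was 13.4 CPM, from 2 UMIs, beside 190 CPM in the defensin-high cells. The reason for this lower level was not tested.

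Of 312 gate-like cells with mitochondrial shares above 10% and up to 20%, 31 (9.94%, 6.85 to 13.8%) reached the share, and 224 had no UMI of the pair. All 12 highest genes were again above 1 and all 12 lowest below 1, beside 55.9% and 44.1% of all genes. By their intervals 8 and 6 of them were, again without a background share. The median depths, not matched, were 2819 and 1454 UMIs. Actr3b had 11 against 4 UMIs there, a ratio of 11.2 (3.32 to 48.3). These cells shared the library, and so its free RNA and any step of its preparation, with the cells of the gate.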

How the data were processed

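The deposited matrix holds raw UMI counts of 27998 genes in 737280 barcodes of 1 10x Genomics ascites library (35733776 UMIs in all); no source used here names the aligner, the build or the annotation. The deposited bulk table was not used: its 8 sample columns match no label. Counts were read with Python 3.11.15 (numpy 2.4.6, scipy 1.17.1, pandas 2.3.3), and doublets were called with Scrublet in scanpy 1.11.5 and kept. The cells, the gene lists and the alternatives were chosen with earlier results of these data known.

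Each defensin-high cell was paired at random (seed 1) with a defensin-free cell of the same 0.1 log2 bin of depth. UMIs were summed per class and divided by the class total without Defb19 and Defb36. Levels carry exact Poisson, shares Clopper-Pearson and ratios exact conditional binomial 95% intervals; PCR and sampling of cells add error that these leave out. Named genes were the 12 highest and 12 lowest by the interval bound nearest 1 among genes with 50 or more UMIs, the beta-defensins with a UMI, the neighbours of the pair, and of each list the members past 1.5-fold or else its 2 most abundant; Cst12, Gata1, Mro, the genes around Cst12, Rhox8 and Gstm1, and list members under the minimum or between the lines were added after their values were seen. Gene IDs were matched to GENCODE M21 (27645 of 27998); whether the counting used strand is not given in the sources used here.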

Additional observations from a re-analysis of the deposited data

Results flagged for a closer look

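Defb19 and Defb36 transcripts were also found outside the cells compared. Among cells with 3 or more UMIs of the mitosis genes, 8.64% held the pair at the share of the defensin-high cells, and among cells with a mitochondrial share above 10% and up to 20% it was 9.94%. Barcodes with 50 or fewer UMIs held 216 CPM (UMIs in each 1000000) of Defb19 and 281 CPM of Defb36. That is RNA outside cells or in barcodes too small to be called a cell, and its part in the levels of the gate cells was not tested.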

How the results depend on the processing

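Depth limits these values: the median tested gene had 129 UMIs in both classes together, so a low ratio or high ratio of a single gene often rests on few UMIs, and 1 library leaves the spread between animals unknown. No paired analysis was possible because there is 1 library.

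The number of higher genes, 791, moved to 1192 against all defensin-free cells, to 1495 with a minimum of 20 UMIs per gene, and to 198 with cells thinned to 1000 UMIs or 181 with a minimum of 200 UMIs. The number of lower genes, 232, moved to 556, 592, 67 and 53 under the same settings, and to 154 for the top 5%. These settings test other numbers of genes: 8232 against all defensin-free cells, 7970 and 1779 with the other minimums, 1411 after thinning and 3240 for the top 5%, beside 5168. Division by the median ratio gave 462 higher and 411 lower. This division, leaving out cells with fibroblast or mesothelial genes, and the limit to 5 or more UMIs of the pair were chosen after seeing the data.

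The Actr3b ratio of 12.6 moved to 7.78 with 1000 or more UMIs per cell, 6.76 for the top 5%, 6.14 for the top 20% and 6.68 without doublets. Defb36 in cells chosen on Defb19, at 9.19, moved to 7.36 with up to 15% mitochondrial UMIs, 13.9 for the top 5%, 7.07 for the top 20% and 7.50 without fibroblast or mesothelial cells. Defb19 in cells chosen on Defb36, at 11.6, moved to 16.2 with 1000 or more UMIs, 14.4 and 17.8 with up to 5% and 15% mitochondrial UMIs, 15.4 with 6 or more UMIs of the gate genes, 30.1 for the top 5%, 9.34 for the top 20%, 14.0 with another draw, 14.8 against all cells without Defb36, and 15.1 without fibroblast or mesothelial cells. The cause was not tested.

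Of 1229 values over 88 other results and 14 settings, those against a class at 0 left out, 1039 lay inside the interval of the reported value, 175 moved in the same direction and 15 turned. Haemoglobin, at 2.03, turned to 0.917 with 1000 or more UMIs, 0.312 at 5% mitochondrial UMIs, 0.278 with 6 gate UMIs, 0.440 for the top 5%, 0.329 with another draw, 0.384 against all defensin-free cells, 0.443 without doublets, 0.388 without fibroblast or mesothelial cells and 0.517 for 5 or more pair UMIs. Mt2 turned to 1.10 at 5% mitochondrial UMIs, and Herpud1 to 1.06 there, 1.0 at 15%, 1.20 with 6 gate UMIs, 1.0 for the top 20% and 1.20 after thinning. Against all defensin-free cells Mcm6 (1.47), Timp1 (1.35), Bax (1.497), Cttn (1.43), Tapbp (1.44), Aldh1a1 (1.49), Gng13 (0.669) and Herpud1 (0.787) were not past the 1.5-fold line, as Gata4 was not.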
